A study of Mus musculus with 47 samples.

Results

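Kit, Flt3, Csf1r, Tek and Tie1, which are receptor tyrosine kinases of blood progenitors, and Angpt1, the ligand of Tek, were followed across the stages of blood cell formation in mouse bone marrow. The 6 genes were taken by symbol, through probe sets annotated to that symbol alone, which gave 10 probe sets of the 45101 on the array and 6 genes of the 18194 that could be named. Each receptor sits in the cell membrane, and those with a known ligand dimerise when it binds and pass the signal on by phosphorylating tyrosines inside the cell. Kit binds stem cell factor and is known from stem cells, early progenitors and mast cells; Flt3 binds Flt3 ligand and is known from early lymphoid and dendritic cell progenitors; Csf1r binds the macrophage growth factors Csf1 and Il34. Tek, also called Tie2, binds the angiopoietins and is known from endothelium and from quiescent stem cells, and Tie1 is its relative with no firmly established ligand of its own.

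The 47 arrays fall into 17 groups of sorted cells, all from the bone marrow of adult C57Bl6 mice, and the labels name them by short codes. The stem and multipotent codes are LTHSC (2 arrays), STHSC (2) and LMPP (5), the erythroid and megakaryocyte codes MkE (4), MkP (3), PreCFUE (3), CFUE (3) and ProE (3), the myeloid codes GMP (3) and GM (2), and the lymphoid codes CLP (2), ETP (3), CD4 (2), ProB (2), PreB (4), IgM+SP (2) and NKmature (2). That grouping follows common use, since the labels spell out no code, and they give no sorting markers, no sex of the animals and no word on pooling. Each array was made from 2000 cells, and all values below are log2 of the deposited intensity.

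Some arrays went against their labels or carried markers of other cell types. On the arrays labelled ProB, the B lineage factor Ebf1 averaged 5.70, against 10.60 in CLP, while the plasmacytoid dendritic cell markers averaged 11.14 and 11.40 over 4 genes and the NK cell markers 9.02 on both arrays over 5 genes. Over 6 B cell markers, Ebf1 among them, the ProB arrays averaged 5.24 and 7.46, against 6.45 and 6.86 in CLP. Neutrophil markers (5 genes) averaged 10.34 to 11.04 on the IgM+SP arrays, 10.76 and 10.86 on the NKmature arrays and 10.32 on ProB replicate 2, against 4.55 and 5.17 on the CLP arrays. The GM arrays carried the lymphoid enzyme Dntt at 11.96, against 4.85 in GMP. Over 4 early lymphoid markers, Dntt among them, the GM arrays averaged 6.77 and 6.82, against 3.84 to 4.05 in GMP. Granulocyte and monocyte progenitor markers (4 genes) averaged 11.03 and 11.32 on the GM arrays, as their label has it. Arrays also differed in sex-linked transcripts: 21 carried Xist alone, 19 Eif2s3y alone and 7 both, and where 2 groups share no such class, whatever goes with it cannot be told apart from the group. That holds for CD4 with ETP, for NKmature and ProB with CLP, for LMPP and GMP with MkE, for MkE with STHSC, for ProE with CFUE and for GM with GMP. PreB was the only group with arrays of Xist alone (replicates 1 and 2) and of Eif2s3y alone (replicates 3 and 4). With the class as a block in the fit, the step between Xist alone and Eif2s3y alone is the step between those PreB arrays. Comparisons of Xist alone with Eif2s3y carry that step over, and in them the block cannot tell class from group. In sorted bulk cells, fewer cells of a type and less RNA per cell cannot be told apart.

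All 6 genes varied widely. The spread between the highest and the lowest group mean was 8.11 for Angpt1, 7.11 for Kit, 6.44 for Flt3, 5.80 for Csf1r, 4.79 for Tek and 4.05 for Tie1, against a median of 2.11 over the 13949 genes tested. Each gene differed among the 17 groups by limma's moderated F-test (adjusted p of 6.74e-13 or lower), as did 90.3% of all genes tested. In 18 comparisons between related groups, a gene was called when its Benjamini-Hochberg adjusted p in limma was under 0.05 and its difference at least 2-fold. Of the 108 pairs of gene and comparison 47 were called, against 16% of such pairs over all genes, and many comparisons share a group, so they are not independent. With only the arrays of the compared groups in the fit, 8 of the 47 were not called: Flt3 and Tek in STHSC with LTHSC, Csf1r, Tek and Angpt1 in LMPP with STHSC, Kit and Csf1r in PreB with CLP, and Csf1r in IgM+SP with PreB.

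**Figure D1:**
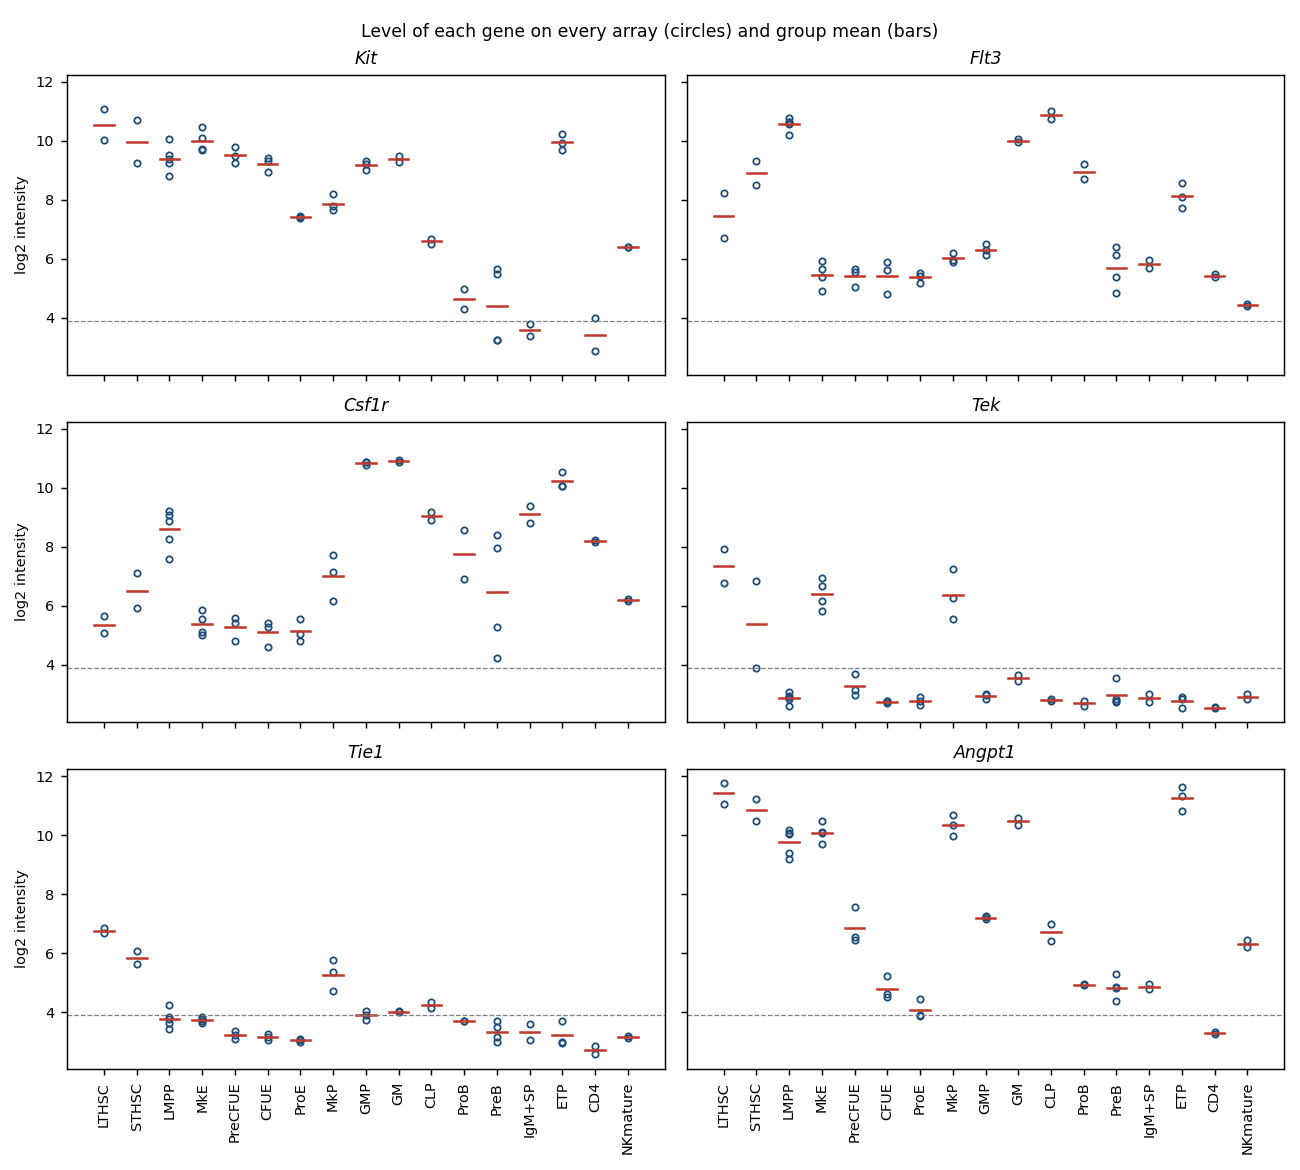
Level of each of the 6 genes on every array, as log2 intensity, with circles for arrays, red bars for group means and a dashed line at the median of all log2 values (3.889). Kit is high from LTHSC to GM except in ProE and MkP, Flt3 peaks in CLP and LMPP, Csf1r in GM and GMP, Tek and Tie1 are over the line in few groups, and Angpt1 is high in LTHSC, ETP, STHSC, GM, MkP, MkE and LMPP.

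Kit was high in most stem and progenitor groups, lower in MkP, ProE, CLP and NKmature, and lowest in the arrays labelled ProB, PreB, IgM+SP and CD4. Its values were 9.25 and 10.69 in STHSC, and 10.02 and 11.06 in LTHSC. In order of group mean, LTHSC (10.54), MkE (9.99), STHSC (9.97), ETP (9.95), PreCFUE (9.50), LMPP (9.39), GM (9.38), CFUE (9.23) and GMP (9.17) followed each other with overlapping arrays. MkP (7.87), ProE (7.41), CLP (6.59), NKmature (6.40) and the arrays labelled ProB (4.63) came next, each below the one before without overlap, and PreB (4.40), IgM+SP (3.58) and CD4 (3.43) closed the order with arrays that overlapped.

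All 6 called differences of Kit were falls. In the erythroid line Kit read 7.42, 7.38 and 7.44 in ProE, against 9.30, 9.43 and 8.94 in CFUE, a difference of -1.81 ± 0.43 (SE, adjusted p = 0.00453, limma). The groups did not overlap, and 1 of the 6 genes was called here, against 4.62% of all genes. In MkP, Kit read 7.78, 8.18 and 7.64, against 9.71, 9.69, 10.45 and 10.10 in MkE (-2.12 ± 0.41, adjusted p = 0.000138). Every MkP array lay below every MkE array, and 3 of the 6 genes were called, against 11.5% of all genes.

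In the lymphoid groups, Kit read 6.68 and 6.51 in CLP, against 9.51, 10.05, 8.79, 9.38 and 9.24 in LMPP (-2.80 ± 0.45, adjusted p = 4.4e-06). The arrays did not overlap, and 2 of the 6 genes were called, against 21.2% of all genes. In CD4 it read 3.98 and 2.88, against 10.21, 9.69 and 9.93 in ETP, a difference of -6.52 ± 0.49 (adjusted p = 7.75e-14). Every CD4 array lay below every ETP array, but the CD4 mean (3.43) was under the median of all values, and with a floor of 16 on the intensity Kit CD4 with ETP was -5.95. The mean of 6 mast cell markers moved with it, at 3.53 and 3.64 in CD4, against 5.33 to 5.39 in ETP. Of the 6 markers only 1 was over the 75th percentile of all values (5.968) in ETP. The protease Cpa3 averaged 3.18 in CD4 and 10.06 in ETP, while Fcer1a, a chain of the IgE receptor, averaged 2.44 in CD4 and 3.32 in ETP, both under the median of all values (3.889). Their part in the result was not tested. In CD4 with ETP 4 of the 6 genes were called, against 26.5% of all genes.

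PreB held Kit at 3.23 and 3.24 in replicates 1 and 2 and at 5.64 and 5.47 in replicates 3 and 4, against 6.68 and 6.51 in CLP (-2.20 ± 0.46, adjusted p = 0.000115). Replicates 3 and 4 stood between the other PreB arrays and CLP, and they also carried the neutrophil markers at 10.37 and 10.95, against 3.82 and 6.23 in replicates 1 and 2. Within the Eif2s3y class, which holds PreB replicates 3 and 4 and both CLP arrays, the difference was -1.04 (adjusted p = 0.0124). In PreB with CLP 4 of the 6 genes were called, against 35.5% of all genes. On the arrays labelled ProB, Kit read 4.30 and 4.96, against the same CLP values (-1.97 ± 0.53, adjusted p = 0.0029). With the sex-linked class as a block the difference was 0.36, but that value carries the Kit step between the PreB arrays. In ProB with CLP 3 of the 6 genes were called, against 29.5% of all genes.

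The second probe set of Kit was dimmer, with group means from 3.93 to 7.11 and a correlation of 0.84 with the first over the 17 group means. On it the differences for ProE with CFUE, CLP with LMPP, ProB with CLP and PreB with CLP were not called, while GMP with MkE (-1.32, adjusted p = 0.00177) and NKmature with CLP (-1.46, adjusted p = 0.00372) were. On the first probe set the differences of Kit among the stem and early progenitor groups missed the threshold. STHSC with LTHSC was -0.57 (95% interval -1.65 to 0.52) and MkE with STHSC 0.02 (-0.92 to 0.96). Several changed with the sex-linked class in the fit. With it as a block MkE with STHSC was 2.34 (adjusted p = 9.47e-05), LMPP with MkE -2.59 (adjusted p = 1.63e-05), GMP with MkE -3.14 (adjusted p = 5.69e-07) and GM with GMP 2.53 (adjusted p = 0.000157), all called, and in each of these comparisons the groups share no class. The block values of these comparisons carry the Kit step between the PreB arrays with Xist alone and those with Eif2s3y alone. IgM+SP with PreB was also called with the block (-1.98, adjusted p = 9.7e-05), against -0.82 and no call without it. Those groups share the Eif2s3y class, and within it, against PreB replicates 3 and 4, the difference was the same (-1.98, adjusted p = 0.000103).

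Flt3 was highest in CLP, LMPP and GM and low in CD4, PreB, IgM+SP and NKmature. It read 10.99 and 10.72 in CLP and 10.76, 10.56, 10.18, 10.63 and 10.64 in LMPP, which overlapped, followed by 9.94 and 10.06 in GM. The arrays labelled ProB (8.96), STHSC (8.91), ETP (8.13) and LTHSC (7.45) came next, each overlapping the one after it. Below GMP (6.31), the means lay between 6.01 in MkP and 5.38 in ProE with overlapping neighbours, and NKmature, at 4.45 and 4.39, lay below all of them.

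Flt3 rose in 4 comparisons and fell in 7. The widest rise was in LMPP, with the values above, against 5.91, 5.37, 4.90 and 5.64 in MkE (5.10 ± 0.27, adjusted p = 4.7e-18). No arrays overlapped, and 3 of the 6 genes were called in LMPP with MkE, against 12.6% of all genes. In GM it read 9.94 and 10.06, against 6.14, 6.49 and 6.30 in GMP (3.69 ± 0.37, adjusted p = 1.3e-09). Again the arrays did not overlap; 2 of the 6 genes were called in GM with GMP, against 7.95% of all genes, and the lymphoid gene Dntt moved with Flt3 as given above, whose part in the result was not tested.

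Among the stem cell groups Flt3 read 9.32 and 8.50 in STHSC, against 8.21 and 6.70 in LTHSC (1.46 ± 0.40, adjusted p = 0.0154). The groups did not overlap, but without LTHSC replicate 2 or STHSC replicate 1 the difference was no longer called, its values without single arrays running from 0.70 to 2.21. In STHSC with LTHSC 2 of the 6 genes were called, against 6.81% of all genes. LMPP stood above STHSC by 1.65 ± 0.34 (adjusted p = 0.000948), which was not called without STHSC replicate 2 (1.24). In that comparison 5 of the 6 genes were called, all but Kit, against 5.42% of all genes.

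The falls of Flt3 were wide. NKmature read 4.45 and 4.39, against 10.99 and 10.72 in CLP (-6.44 ± 0.40, adjusted p = 9.84e-16), with 3 of the 6 genes called, against 41.3% of all genes. PreB read 4.85, 5.38, 6.14 and 6.38, against the same CLP values (-5.17 ± 0.35, adjusted p = 7e-15). The groups stood far apart in both cases. GMP was below LMPP by -4.24 ± 0.29 (adjusted p = 2.09e-14), with 3 of the 6 genes called, against 16.8% of all genes, and MkE was below STHSC by -3.45 ± 0.35 (adjusted p = 8.76e-10), with 2 of the 6 genes called, against 18.3% of all genes. CD4 (-2.70 ± 0.37 from ETP), ETP (-2.43 ± 0.29 from LMPP) and the arrays labelled ProB (-1.90 ± 0.40 from CLP) completed the falls. The last of these was not called with the sex-linked class as a block, a fit that carries the Flt3 step between the PreB arrays.

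Csf1r was highest in the granulocyte and monocyte progenitors, and it was also high in several lymphoid groups. It read 10.87 and 10.93 in GM and 10.88, 10.87 and 10.77 in GMP, which overlapped, and then 10.55, 10.08 and 10.05 in ETP. IgM+SP (9.10), CLP (9.06), LMPP (8.61), CD4 (8.20), the arrays labelled ProB (7.75), MkP (7.01), STHSC (6.51), PreB (6.47) and NKmature (6.21) followed, each overlapping the next. MkE (5.39), LTHSC (5.37), PreCFUE (5.27), ProE (5.14) and CFUE (5.10) closed the order.

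Csf1r rose in 7 comparisons and fell in 3. In GMP it stood above the 5.56, 5.02, 5.86 and 5.11 of MkE by 5.46 ± 0.57 (adjusted p = 5.27e-10), where 3 of the 6 genes were called, against 15.6% of all genes. LMPP read 8.27, 9.22, 7.60, 9.08 and 8.89, above the same MkE arrays by 3.23 ± 0.50 (adjusted p = 2.62e-06), and GMP was above LMPP by 2.23 ± 0.54 (adjusted p = 0.00122). None of these groups overlapped. With the sex-linked class as a block LMPP with MkE was -0.02, but these groups share no class. That value carries the Csf1r step from PreB replicates 1 and 2 (4.23 and 5.28) to replicates 3 and 4 (7.97 and 8.41). The mean of 5 monocyte and macrophage markers was 5.75 to 5.92 on the GMP arrays, 4.46 to 5.11 on the LMPP arrays and 3.65 to 3.86 on the MkE arrays. In GMP, the monocyte marker Ms4a6c averaged 10.62, the macrophage marker Adgre1 4.99 and the Fc receptor Fcgr1 3.65, and their part in the result was not tested.

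The smaller differences of Csf1r were lost when single arrays were left out. LMPP with STHSC (2.10 ± 0.62, adjusted p = 0.0256) was not called without LMPP replicate 4 or 5 or STHSC replicate 1 or 2. ETP with LMPP (1.61 ± 0.54, adjusted p = 0.0209, with 3 of the 6 genes called against 11.9% of all genes) was not called without ETP replicate 1 or LMPP replicate 3. CD4 with ETP (-2.03 ± 0.68, adjusted p = 0.0161) was not called without either CD4 array or ETP replicate 1. With the sex-linked class as a block CD4 with ETP was 1.20, a value that carries the step between the PreB arrays. MkP with MkE (1.62 ± 0.57, adjusted p = 0.0272) was not called without MkE replicate 2 or 4 or MkP replicate 1 or 3, and it was -0.38 on another probe set of the gene.

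In PreB, Csf1r read 4.23 and 5.28 in replicates 1 and 2 and 7.97 and 8.41 in replicates 3 and 4. IgM+SP, at 9.40 and 8.81, lay above all PreB arrays (2.63 ± 0.64, adjusted p = 0.00291), and PreB lay below the 8.92 and 9.20 of CLP (-2.59 ± 0.64, adjusted p = 0.000837). The PreB arrays split in the same way as for Kit, and the neutrophil markers split with them. So did the mean of NK cell markers (5 genes), at 3.38 and 3.58 in replicates 1 and 2 and 5.87 and 6.10 in replicates 3 and 4, with Gzma at 3.93 and 3.94, and 9.63 and 9.94. Nkg7 read 3.26 and 3.30, and 7.37 and 7.89. Klrk1 and Prf1 rose less, Klrk1 from 2.82 and 3.22 to 4.14 and 4.06, and Prf1 from 3.8 and 4.19 to 4.55 and 5.34. Ncr1, at 3.09 and 3.23, and 3.68 and 3.25, was under the median of all values. Plasmacytoid dendritic cell markers (4 genes) averaged 6.78 and 6.86 in replicates 1 and 2 and 8.03 and 8.39 in replicates 3 and 4. Among them Ccr9 read 2.92 and 2.79, and 9.42 and 9.52, and Siglech 4.15 and 4.18, and 5.39 and 6.45. Ly6d ran the other way, at 10.49 and 11.02, and 8.45 and 8.18. Tcf4 did not rise, at 9.56 and 9.45, and 8.84 and 9.42. The mean of B cell markers (6 genes) ran the other way, at 10.25 and 10.18 in replicates 1 and 2 and 9.14 and 9.05 in replicates 3 and 4, with Cd79a at 11.17 and 11.19, and 7.31 and 7.62. Ebf1 instead rose, at 10.68 and 11.20, and 12.15 and 12.26, and Vpreb1 read 10.63 and 9.94, and 9.62 and 9.66. Of the monocyte and macrophage markers, Cd14 read 3.06 and 3.75, and 6.36 and 6.54, and Ms4a6c 4.49 and 4.28, and 5.96 and 6.3. Adgre1 (up to 4.68) and Cd68 (up to 4.46) rose less, and Fcgr1, at 3.42 to 3.73, was under the median of all values. Whether cells with these markers had a part in the results was not tested. Within the Eif2s3y class neither difference was called, with 0.91 (adjusted p = 0.277) for IgM+SP with PreB and -0.87 (adjusted p = 0.123) for PreB with CLP. IgM+SP with PreB was also not called without IgM+SP replicate 1. In IgM+SP with PreB 1 of the 6 genes was called, against 12.8% of all genes. NKmature was below CLP by -2.85 ± 0.74 (adjusted p = 0.00134).

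**Figure D2:**
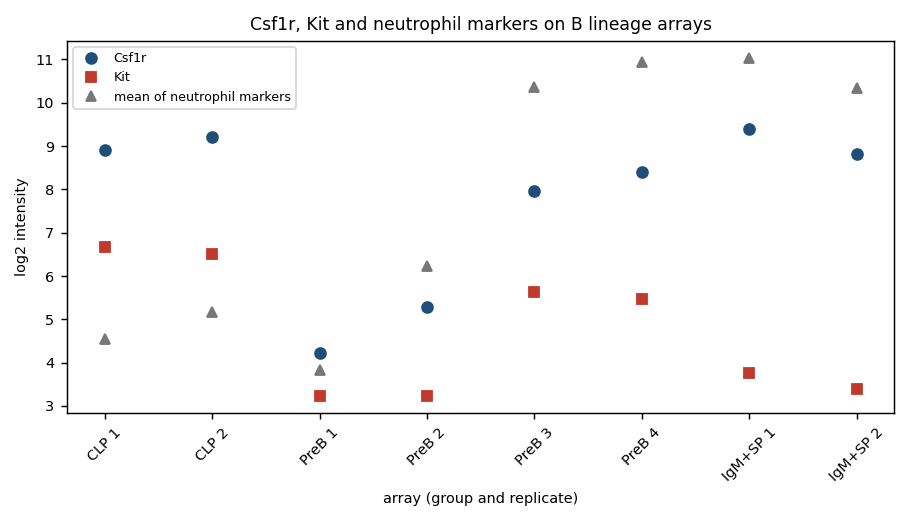
Csf1r, Kit and the mean of 5 neutrophil markers, as log2 intensity, on each CLP, PreB and IgM+SP array. PreB replicates 3 and 4 have neutrophil markers at 10.37 and 10.95 and Csf1r at 7.97 and 8.41, and PreB replicates 1 and 2 have 3.82 and 6.23 and Csf1r at 4.23 and 5.28.

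The 3 probe sets of Csf1r did not have the same range. The second followed the first (correlation of 0.94 over the 17 group means, with a range of 4.45), while the third spanned only 1.49 (correlation of 0.68), and on it 1 comparison was called, against 10 on the first.

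**Figure D3:**
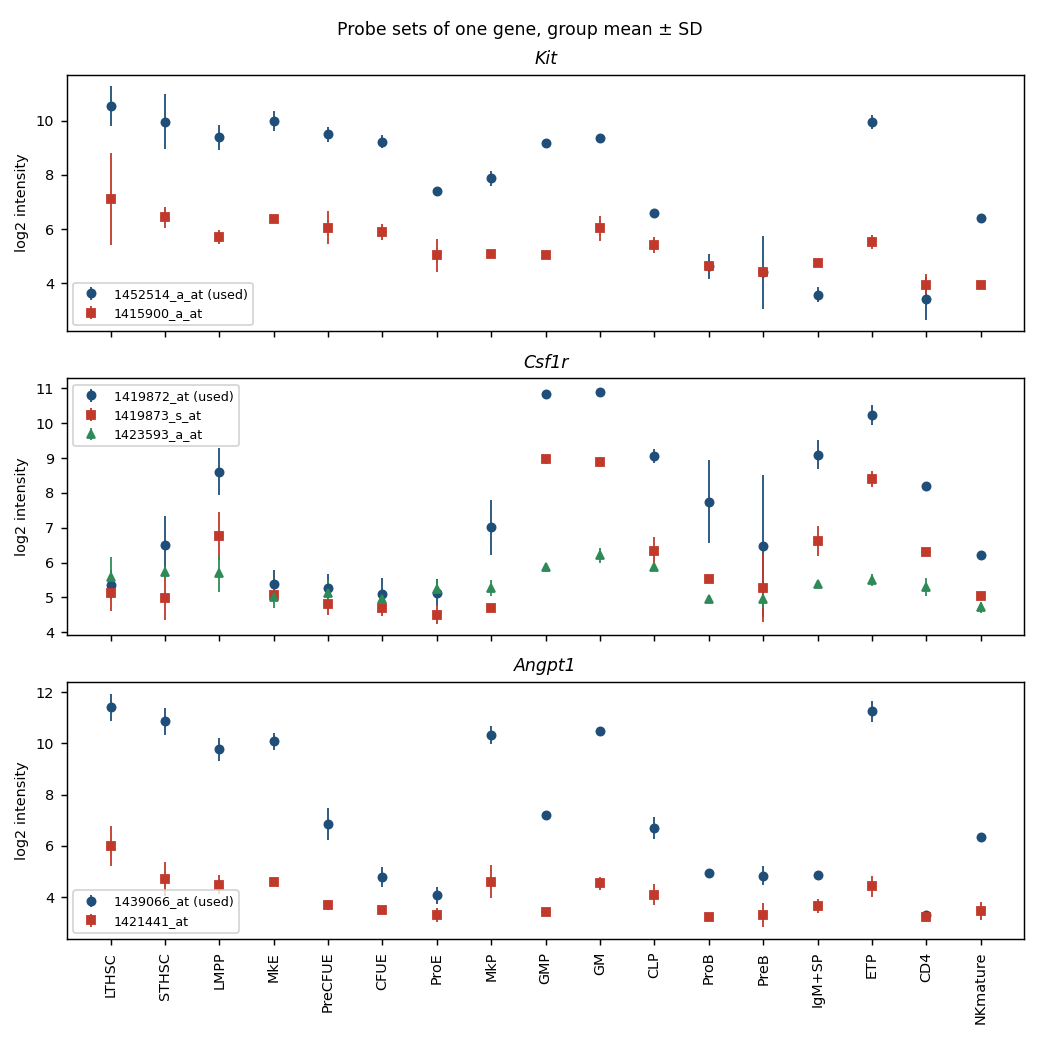
Group means with SD, as log2 intensity, of every probe set of Kit, Csf1r and Angpt1 in the 17 groups. The probe set used spans 7.11 for Kit, 5.80 for Csf1r and 8.11 for Angpt1, and the other probe sets span 3.18, 4.45 and 1.49, and 2.76.

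Tek was found in stem cells and in the megakaryocyte line. It read 6.77 and 7.92 in LTHSC, 5.82, 6.15, 6.66 and 6.95 in MkE, and 6.27, 7.26 and 5.57 in MkP, and these groups overlapped. STHSC was split, at 3.90 in replicate 1 and 6.84 in replicate 2. Every other group had a mean of 3.56 (GM) or less, under the median of all values, so their order is not read.

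All 5 called differences of Tek were falls. LMPP read 2.60, 2.84, 3.09, 2.92 and 2.94, below MkE by -3.52 ± 0.33 (adjusted p = 4.55e-11). GMP was below MkE by -3.45 ± 0.38 (adjusted p = 1.47e-09), and PreCFUE, at 3.70, 3.14 and 2.99, was below it by -3.12 ± 0.38 (adjusted p = 6.35e-08), with 2 of the 6 genes called there, against 7.31% of all genes. In these comparisons the arrays did not overlap. The falls that involve STHSC rest on single arrays: STHSC with LTHSC (-1.97 ± 0.49, adjusted p = 0.00676) had overlapping arrays and was not called without LTHSC replicate 2 or STHSC replicate 1, and LMPP with STHSC (-2.49 ± 0.41, adjusted p = 5.69e-05) was -1.02 and not called without STHSC replicate 2.

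Tie1 was highest in LTHSC, at 6.67 and 6.86, then in STHSC, at 5.62 and 6.07, and in MkP, at 5.76, 4.71 and 5.35. LTHSC lay above STHSC without overlap, though the difference (STHSC with LTHSC -0.92 ± 0.27) was under 2-fold, and STHSC and MkP overlapped. CLP (4.24) and GM (4.02) came next, and GMP (3.90) and the remaining groups were near or under the median of all values. Tie1 fell in LMPP, at 3.42, 3.83, 4.24, 3.64 and 3.77, against STHSC (-2.06 ± 0.22, adjusted p = 2.91e-08), and in MkE, at 3.76, 3.63, 3.85 and 3.70, against STHSC (-2.11 ± 0.23, adjusted p = 6.87e-09). It rose in MkP against MkE (1.54 ± 0.21, adjusted p = 3.57e-07), where Tek did not differ detectably (-0.03, 95% interval -0.79 to 0.74). NKmature with CLP (-1.08 ± 0.27, adjusted p = 0.000865) was not called without CLP replicate 1, nor after another scaling of the arrays or a floor on low values.

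Tek and Tie1 are also genes of endothelium, so endothelial markers were read beside them. Of 8 markers, 6 were over the median of all values in LTHSC and 4 in MkP, against 4 in LMPP. Cdh5 averaged 3.23 in LTHSC and 3.10 in MkP and Pecam1 3.72 and 3.80 in these groups, all under the median of all values. Vwf, which platelets also carry, averaged 10.01 in LTHSC and 11.19 in MkP, against 2.96 in LMPP, and Kdr 6.77 in LTHSC and 6.41 in MkP, against 4.79 in LMPP. Egfl7 averaged 8.40 in LTHSC and 5.99 in MkP, against 8.80 in LMPP. Plvap averaged 4.91, Emcn 5.47 and Ramp2 4.48 in LTHSC, and 5.20, 3.47 and 3.49 in MkP. The mean over the 8 markers was 5.74 and 6.0 in LTHSC and 5.22 to 5.41 on the MkP arrays, against 4.44 to 4.64 on the LMPP arrays, and their part in the levels of Tek and Tie1 was not tested. Over the 17 group means Tek and Tie1 had a correlation of 0.81, given as a description. The start regions of both genes are shown because of this correlation, although in MkE the genes parted (Tek 6.4, Tie1 3.74). Each region holds 250 bases before and 50 after a transcript start annotated by RefSeq (GRCm38.p6), with capitals for motif matches on either strand. For Tek that start lies inside the annotated gene, downstream of its first base. The motif searched for factors such as Gata2 was AGATAA. That for ETS factors was GGAAG. That for RUNX factors was TGTGGT.
Tek, chr4:94739039-94739338, plus strand: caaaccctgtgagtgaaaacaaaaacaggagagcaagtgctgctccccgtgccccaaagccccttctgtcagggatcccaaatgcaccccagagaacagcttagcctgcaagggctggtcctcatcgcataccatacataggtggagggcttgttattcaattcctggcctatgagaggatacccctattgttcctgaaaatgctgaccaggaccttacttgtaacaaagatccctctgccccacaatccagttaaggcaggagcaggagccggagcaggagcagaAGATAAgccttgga
Tie1, chr4:118489800-118490099, minus strand: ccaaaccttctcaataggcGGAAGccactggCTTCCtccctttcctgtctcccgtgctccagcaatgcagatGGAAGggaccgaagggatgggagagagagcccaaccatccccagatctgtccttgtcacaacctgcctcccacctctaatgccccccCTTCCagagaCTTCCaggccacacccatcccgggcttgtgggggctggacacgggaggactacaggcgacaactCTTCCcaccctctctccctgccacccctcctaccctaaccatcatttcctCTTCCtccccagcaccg
The Tek region held 1 match to AGATAA and none to GGAAG, and the Tie1 region held 7 matches to GGAAG and none to AGATAA. Neither held TGTGGT, and no matches overlapped. Of 32851 promoters of this length, 11.2% held AGATAA, 71.4% GGAAG and 16.8% TGTGGT. A match is a description of letters, not of a site in use.

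Angpt1, the ligand of Tek, had the widest range of the 6. It read 11.05 and 11.78 in LTHSC, 11.63, 11.31 and 10.82 in ETP, and 10.48 and 11.24 in STHSC, with overlap between neighbours. GM (10.47), MkP (10.32), MkE (10.08) and LMPP (9.77) came next with overlapping arrays. A gap followed to GMP (7.20), PreCFUE (6.86), CLP (6.71) and NKmature (6.33), and then to the arrays labelled ProB (4.94), IgM+SP (4.87), PreB (4.83), CFUE (4.79), ProE (4.07) and CD4 (3.30).

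Angpt1 fell in 9 comparisons and rose in 2. CD4 read 3.34 and 3.26, below the ETP values by -7.95 ± 0.33 (adjusted p = 2.7e-21). Along the erythroid groups, PreCFUE read 7.58, 6.55 and 6.46, against 9.69, 10.07, 10.09 and 10.48 in MkE (-3.22 ± 0.28, adjusted p = 1.76e-11), and CFUE read 4.61, 5.24 and 4.52, against those PreCFUE values (-2.07 ± 0.29, adjusted p = 4.26e-06). Each step lay below the one before without overlap, and the 1 gene called in CFUE with PreCFUE was Angpt1, against 2.65% of all genes. CLP read 7.0 and 6.41, below LMPP (10.04, 10.16, 10.07, 9.18 and 9.40) by -3.06 ± 0.30 (adjusted p = 5.48e-10).

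Away from LMPP and MkE, GMP read 7.15, 7.25 and 7.21 and was below LMPP by -2.57 ± 0.26 and below MkE by -2.88 ± 0.28, while GM, at 10.59 and 10.35, was above GMP by 3.26 ± 0.33 (adjusted p = 1.79e-09). ETP was above LMPP by 1.48 ± 0.26 (adjusted p = 4.56e-05), called on this probe set but not with the mean of both. PreB (-1.88 ± 0.31) and the arrays labelled ProB (-1.77 ± 0.36) were below CLP. LMPP with STHSC (-1.09 ± 0.30, adjusted p = 0.0159) was not called without LMPP replicate 4 or 5 or STHSC replicate 2, nor within the Eif2s3y class (-0.76). The second probe set of Angpt1 spanned 2.76 and had 5 comparisons called, against 11 on the first. On the second, PreCFUE with MkE (-0.91), CFUE with PreCFUE (-0.2) and CLP with LMPP (-0.38) were not called. Neither were LMPP with STHSC (-0.23), ETP with LMPP (-0.07), ProB with CLP (-0.88) and PreB with CLP (-0.81). CD4 with ETP was -1.17 and called there, and STHSC with LTHSC (-1.27) was called there but not on the first.

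**Figure D4:**
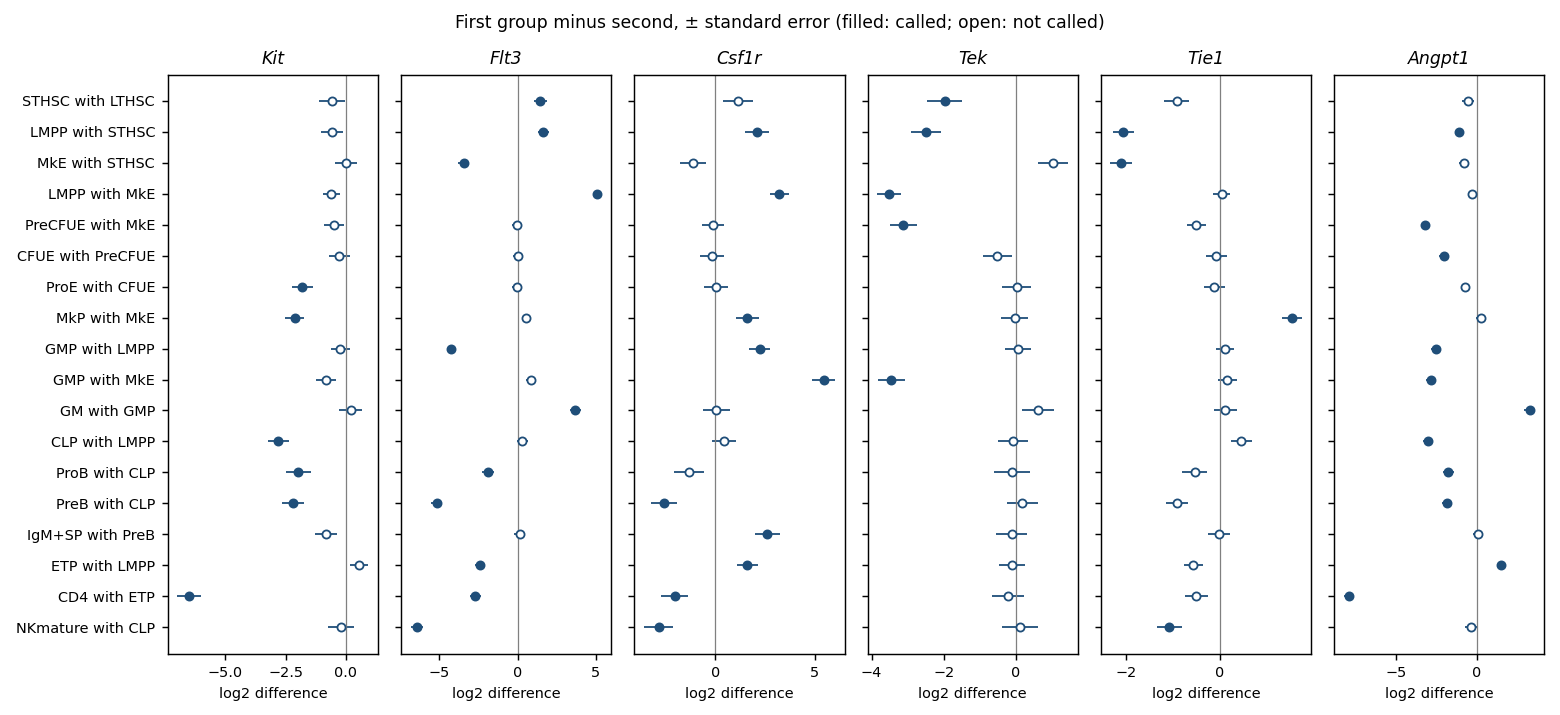
Log2 difference (first group minus second) with its standard error for the 6 genes in the 18 comparisons. Filled points were called in limma, open points were not. Angpt1 and Kit differ most in CD4 with ETP (-7.95 and -6.52) and Flt3 in NKmature with CLP (-6.44).

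For each gene the 5 genes with the most similar profile over the 17 group means were taken among 9208 candidates, as a description with no test. Kit was nearest to Pter (correlation of 0.948) and the haematopoietic factor Nfe2 (0.946), and Flt3 to Myl10 (0.948) and Arhgap32 (0.920). Csf1r was nearest to S1pr3 (0.922) and Synj2 (0.912), and Tek to Prkg1 (0.929), the monoamine transporter Slc18a2 (0.918), the platelet integrin Itga2b (0.911) and the transcription factor Gata2 (0.903). Tie1 was nearest to Gng11 (0.958) and Angpt1 to Dapp1 (0.941). Among the 6 genes, Kit and Angpt1 had a correlation of 0.77, Flt3 and Csf1r 0.52, and Kit and Flt3 0.23.

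Of the other ligands on the array, 4 stayed near or under the median of all values. Kitl, which encodes stem cell factor, had group means of 3.20 to 3.99, Il34 3.04 to 3.56, Angpt2 3.09 to 3.61 and Angpt4 3.25 to 4.33. Csf1 ran from 5.51 in NKmature to 6.90 in CLP, and NKmature with CLP (-1.38 ± 0.22, adjusted p = 2.84e-06) was the only call among the 3 of these ligands tested.

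Of 25 other receptor tyrosine kinases tested, Pdgfrb, a receptor for platelet-derived growth factor, had wide differences. It fell in CD4, at 2.68, against 10.39 in ETP (-7.71 ± 0.33), in PreCFUE against MkE (-3.55 ± 0.27) and in NKmature against CLP (-5.12 ± 0.36). In CD4 with ETP 1 of the 25 rose and 4 fell (median -0.03, against 0.00 over all genes, of which 26.5% were called), and in NKmature with CLP 1 rose and 6 fell (median -0.57, against 0.17, with 41.3% of all genes called). Both shares lie below those of all genes. Met, the hepatocyte growth factor receptor, rose in GMP, at 8.90, against 3.65 in LMPP (5.25 ± 0.29), where 2 of the 25 rose and 1 fell (median -0.12, against -0.03 over all genes, of which 16.8% were called).

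Of 40 genes tested that pass receptor signals on or shut them off, 6 rose and 7 fell in CD4 with ETP (median 0.19, against 0.00 over all genes, of which 26.5% were called). Rasgrp1, an activator of Ras in T cells, rose by 7.29 ± 0.28, and Gab2, an adaptor of Kit signalling, fell by 4.66 ± 0.44. In NKmature with CLP 14 of the 40 rose and 5 fell (median 0.28, against 0.17 over all genes, of which 41.3% were called), with Rasgrp1 at 5.69 ± 0.30. In GMP with LMPP 2 rose and 8 fell (median -0.07, against -0.03, with 16.8% of all genes called), with the kinase Fyn at -2.61 ± 0.23. In PreCFUE with MkE 7 fell and 0 rose (median -0.21, against 0.03, with 7.31% of all genes called), with Rasgrp2 at -1.72 ± 0.24.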

How the data were processed

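RNA from 2000 sorted cells per sample was amplified by dual amplification and hybridised to Affymetrix mouse arrays, according to the series' design text. As deposited, each value is the linear intensity of a probe set, which the authors computed by RMA (same text); how arrays were scaled is not given in the sources used here. Medians of arrays lay between 13.8 and 16.9 and upper quartiles between 50.2 and 75.7, with CLP lowest. Replicates correlated at 0.928 to 0.997, 46 of 47 arrays had their highest correlation within their group, and none were identical.

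Log2 was taken without a pseudocount. Of 45101 probe sets, 34958 had 1 symbol, 932 several and 9211 were not listed. The brightest probe set stood for a gene, and the 13949 genes whose highest group mean passed the overall log2 median (3.889) entered the fit, with 17 group means in limma 3.58.1 (R 4.3.3; 30 residual degrees of freedom; two-sided; Benjamini-Hochberg). The model was tested on simulated data. The labels name biological replicates but no animals, so a p-value reflects only how these arrays differ, which may be technical. The members, lists, comparisons and motifs were chosen with earlier results of these data known. Named genes are the members, their 5 most similar genes (group mean over 6 somewhere) and called genes of the lists with the largest differences; which to print was chosen after their values were seen. Alternatives were other probe sets, filters, scalings, a floor of 16, array weights, a trended spread, blocks, groups alone, no ProB arrays and leaving out each array. Classes were set by Xist over 7 and Eif2s3y over 5.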

Additional observations from a re-analysis of the deposited data

Results flagged for a closer look

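Tek on PreB replicate 4, at 3.55, stood apart from the other PreB arrays, at 2.74, 2.85 and 2.78. The gap to its nearest neighbour was 0.855 of the range of the group, and 18 sets of values were tested, of which chance flags about 1 in 20. Megakaryocyte markers (5 genes) also stood apart on that array, at 6.87, against 3.99, 4.94 and 4.14 on replicates 1 to 3, with Pf4 at 10.26, against 3.71, 5.02 and 4.02, and Ppbp at 8.63, against 2.71, 5.11 and 3.34. Their part in the Tek value was not tested. All 4 Tek values lie under the median of all values (3.889).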

How the results depend on the processing

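The 6 genes had 47 calls, and 40 to 50 over all settings (45 to 49 with single arrays left out, 45 with the replicate block, which rests on numbers that pair no arrays, 50 with the sex-linked class as a block and 40 with the groups compared alone). Of the 47 called differences 21 kept their call and direction under every setting and left-out array, and 16 of the 61 not called were called under at least 1 setting. Leaving out the arrays labelled ProB kept all 102 differences of the other comparisons on their side of the threshold and in their direction. Where 1 array remained in a group, it was assumed to vary like those of the other groups. Calls of single genes moved by over 1.5 times for Csf1r (1 on its probe set of narrowest range), Angpt1 (5 on its second probe set), Kit (10 with the sex-linked class as a block) and Tek (3 with the groups compared alone).

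Sign changes touched 10 cases where the difference was called in one of the fits. They were Csf1r MkP with MkE (-0.38) on its second probe set, Csf1r LMPP with STHSC (-0.040) and ETP with LMPP (-0.20) on the one of narrowest range, Angpt1 ETP with LMPP (-0.072) on its second, and, with the sex-linked class as a block, Kit ProB with CLP (0.36) and Csf1r MkE with STHSC (2.31), LMPP with MkE (-0.022), ProE with CFUE (-3.40), CD4 with ETP (1.20) and ProB with CLP (2.13). Those with the block all set Xist alone against Eif2s3y, so each carries the step between the PreB arrays of these classes. The cause of the changes on other probe sets was not tested.

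Other differences that were not called also changed sign. With the class as a block these were Kit NKmature with CLP (0.36), Flt3 GMP with MkE (-0.29) and IgM+SP with PreB (-0.43), Tek ProE with CFUE (-0.35), CLP with LMPP (0.004), CD4 with ETP (0.24), ProB with CLP (0.26) and NKmature with CLP (-0.017), Tie1 LMPP with MkE (-0.17), and Angpt1 LMPP with MkE (0.44) and NKmature with CLP (0.17). Within the Eif2s3y class they were Tek CLP with LMPP (0.083) and ETP with LMPP (0.12) and Flt3 IgM+SP with PreB (-0.43). With the replicate block they were Kit MkE with STHSC (-0.15), Flt3 PreCFUE with MkE (0.065), Csf1r PreCFUE with MkE (0.13), Tek MkP with MkE (0.10), CLP with LMPP (0.023) and ETP with LMPP (0.035), Tie1 IgM+SP with PreB (0.009) and Angpt1 IgM+SP with PreB (-0.10). On other probe sets they were Kit MkE with STHSC (-0.067), IgM+SP with PreB (0.31) and ETP with LMPP (-0.17), and Csf1r STHSC with LTHSC (-0.13), MkE with STHSC (0.089), ProE with CFUE (-0.19), GM with GMP (-0.080), CLP with LMPP (-0.44) and PreCFUE with MkE (0.13). Quantile normalization again gave Kit MkE with STHSC (-0.22), Flt3 PreCFUE with MkE (0.020), CFUE with PreCFUE (-0.024) and ProE with CFUE (0.026), and Tek ProE with CFUE (-0.011), MkP with MkE (0.30) and ProB with CLP (0.043). Centring gave Kit NKmature with CLP (0.014), Tek ProE with CFUE (-0.008) and ProB with CLP (0.043), Tie1 LMPP with MkE (-0.002) and Angpt1 IgM+SP with PreB (-0.049). Kit MkE with STHSC was -0.025 with the mean of probe sets and -0.068 with array weights, and Tie1 GMP with LMPP was -0.037 with the floor.

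With single arrays left out, sign changes gave ranges of -1.29 to 0.16 for Kit STHSC with LTHSC, -1.30 to 0.14 for LMPP with STHSC and -0.71 to 0.74 for MkE with STHSC. Flt3 ran from -0.21 to 0.34 in CFUE with PreCFUE, -0.37 to 0.18 in ProE with CFUE, -0.23 to 0.15 in PreCFUE with MkE and -0.14 to 0.37 in IgM+SP with PreB. Csf1r ran from -0.40 to 0.088 in CFUE with PreCFUE, -0.22 to 0.21 in ProE with CFUE and -0.27 to 0.12 in PreCFUE with MkE. Tek ran from -0.25 to 0.071 in IgM+SP with PreB, -0.006 to 0.12 in GMP with LMPP, -0.47 to 0.37 in MkP with MkE, -0.011 to 0.26 in PreB with CLP, -0.050 to 0.090 in ProE with CFUE and -0.44 to 2.49 in MkE with STHSC. Tie1 ran from -0.29 to 0.26 in IgM+SP with PreB and -0.072 to 0.14 in LMPP with MkE, and Angpt1 from -0.11 to 0.19 in IgM+SP with PreB. Signal limits the values of Tek and Tie1, which lie under the median of all values in most groups, and the size of differences from CD4 for Kit and Angpt1.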
